A study of Mus musculus with 12 samples.

Results

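The genes described here are 32 genes of the endoplasmic reticulum (ER): its chaperones and disulfide isomerases, the sensors of the unfolded protein response, the machinery of ER-associated degradation, and the translocon. They were given as a list of symbols, and all 32 matched 1 entry each among the 23764 genes of the deposited table. Messenger RNA was measured by sequencing in RAW264.7 cells, an immortalized mouse macrophage line of Balb/c origin, which the cytokine RANKL drives towards osteoclasts. All cultures received RANKL, labelled as 100 ug/ml, with 10% fetal bovine serum. The treated groups also received culture supernatant of the bacterium Lactobacillus reuteri and the vehicle groups received MEM-alpha medium. Each arm was sampled at days 1, 3 and 5 with 2 libraries per group, 12 in all. The labels do not say whether the 2 libraries of a group came from separate cultures. P-values thus rest on differences between libraries that may be technical. No medium is named for the bacterial culture.

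Proteins that enter the secretory pathway fold inside the ER with the help of HSP70, HSP90 and lectin chaperones, and disulfide isomerases pair their cysteines. When unfolded chains accumulate, the membrane sensors IRE1 (Ern1), PERK (Eif2ak3) and ATF6 become active. IRE1 splices the Xbp1 mRNA, PERK slows translation and lets ATF4 accumulate, and ATF6 is cut in the Golgi by the proteases MBTPS1 and MBTPS2. XBP1 and the cut ATF6 then bind ER stress response elements in the promoters of chaperone genes. Counts per gene show neither Xbp1 splicing nor cleavage of ATF6. Osteoclasts and macrophages secrete large amounts of lysosomal enzymes and cytokines, which pass through the ER.

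The libraries held 8071160 to 16781080 reads. Nuclear protein-coding genes took 38.1% to 48.8% of the reads in replicate 2 of each group of days 3 and 5, and 85.2% to 87.6% in the remaining 8 libraries. These 4 libraries, called low-mRNA libraries here, also had 25.7% to 30.6% mitochondrial reads, against 3.64% to 5.97%, and 8.15% to 14.0% on the nuclear RNA Malat1, against 0.218% to 0.489%. Since the deposited values are scaled to the same total in every library, most coding genes stand lower in them. The summed counts of 8 osteoclast markers were 3151 and 3496 in replicate 1 of day 5 (supernatant and vehicle), against 3743 to 3988 over the day 1 libraries, 13752 and 17436 in replicate 1 of day 3, and 17611 and 15985 in the low-mRNA libraries of day 5. Acp5, the osteoclast acid phosphatase, had 21.1 normalized counts in the supernatant library and 35.9 in the vehicle library of day 5 replicate 1. It had 742 and 1068 in those libraries of day 3 and 771.5 and 1231 in the low-mRNA libraries of day 5. The markers were not alike in these day 5 replicate 1 libraries. Mmp9 had 798 with supernatant and 663 with vehicle, against 155 to 194 at day 1, and Atp6v0d2 had 600 and 809, against 288 to 463. Nfatc1, Dcstamp and Ocstamp were below every day 1 library in both. All 8 macrophage markers looked for were found in the table, with summed counts of 23960 to 335572, most of them Lyz2. The summed counts of the fibroblast and osteoblast, epithelial, endothelial and B cell markers found did not exceed 103, and the T cell sum, at most 219, was nearly all Cd247. In such bulk samples, fewer cells of a type and less RNA per cell cannot be told apart.

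Promoter sequences are shown first because the ER stress response element (ERSE) is the known promoter element of chaperone genes. It was searched as CCAAT, any 9 bases, CCACG, on both strands, from 250 bases before to 50 bases after each annotated start in RefSeq's GRCm38.p6 table, which held a window for 27 of the 32 genes (Manf, Hyou1, Atf6, Derl1 and Sec61a1 had none). Of the 27, 8 held an ERSE (29.6%), against 37 of all 27018 genes with a window (0.137%). Another 2, Herpud1 and Dnajb11, held the shorter ERSE-II, ATTGG, 1 base, CCACG, which 12 of all genes held (0.0444%). The unfolded protein response element, TGACG followed directly by TGG, was found in 0 of 27 windows and in 193 genes overall (0.714%). Its core ACGTG stood in 33.3% of the 27, against 21.8% of all genes. The CCAAT and CCACG boxes were common: CCAAT stood in 77.8% of the 27 and in 41.1% of all genes, and CCACG in 81.5% and 35.5%, ERSE and ERSE-II matches included. A match describes the letters and is no evidence of binding in these cells. The 150 bases before the start are given, 5′ to 3′ along the gene, for the 4 genes holding a motif that had the smallest p for treatment at day 5. Capitals mark the motif, which lies on the opposite strand in Creld2.
Hspa5 (chr2:34771940-34772089, plus strand): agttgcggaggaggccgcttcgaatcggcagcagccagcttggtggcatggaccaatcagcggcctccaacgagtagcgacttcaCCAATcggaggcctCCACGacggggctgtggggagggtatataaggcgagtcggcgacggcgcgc
Pdia6 (chr12:17266439-17266588, plus strand): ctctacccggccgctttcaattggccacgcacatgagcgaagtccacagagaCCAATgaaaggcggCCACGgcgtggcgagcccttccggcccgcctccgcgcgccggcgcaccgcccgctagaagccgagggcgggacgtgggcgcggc
Creld2 (chr15:88819496-88819645, plus strand): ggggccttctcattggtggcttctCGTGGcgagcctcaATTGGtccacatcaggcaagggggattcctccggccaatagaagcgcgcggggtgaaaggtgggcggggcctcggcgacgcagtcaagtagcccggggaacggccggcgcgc
Dnajc3 (chr14:118937782-118937931, plus strand): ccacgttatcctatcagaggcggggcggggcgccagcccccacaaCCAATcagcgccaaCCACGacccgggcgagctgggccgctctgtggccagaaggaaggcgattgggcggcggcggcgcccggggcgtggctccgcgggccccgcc
In Hspa5 the ERSE began 65 bases before the start, in Pdia6 98, in Creld2 126 and in Dnajc3 105. The sites of the other 4 genes with an ERSE, of which Hsp90b1 held 2, are given with the strand from which CCAAT reads to CCACG.
Calr (chr8:84847075-84847093, plus strand): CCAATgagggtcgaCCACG
Hsp90b1 (chr10:86705638-86705656, minus strand): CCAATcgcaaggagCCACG
Hsp90b1 (chr10:86705533-86705551, plus strand): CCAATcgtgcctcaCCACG
Canx (chr11:50325800-50325818, minus strand): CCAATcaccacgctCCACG
Syvn1 (chr19:6046532-6046550, plus strand): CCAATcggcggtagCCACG
The ERSE-II sites had the following letters.
Herpud1 (chr8:94386377-94386387, plus strand): ATTGGgCCACG
Dnajb11 (chr16:22857852-22857862, plus strand): ATTGGcCCACG
The 9 bases between CCAAT and CCACG differed between all of these ERSE matches.

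In vehicle cultures at day 1 the most abundant of the 32 transcripts per kilobase of exon was P4hb, protein disulfide isomerase itself, at 6037 normalized counts per kilobase. Hsp90b1 followed with 3669 and Hspa5, the HSP70 chaperone BiP, with 3238. The lowest were the sensors Eif2ak3 with 62.3 and Ern1 with 48.6 normalized counts per kilobase. Together the 32 genes took 1.15% and 1.18% of the reads on nuclear protein-coding genes in supernatant libraries of day 1, against 1.14% and 1.13% in vehicle libraries. At day 3 they took 1.09% and, in the low-mRNA library, 0.984% with supernatant, against 1.00% and 0.943% with vehicle. At day 5 the shares were 2.04% and, in the low-mRNA library, 0.923% with supernatant, against 1.36% and 0.803% with vehicle. The supernatant library was thus above its vehicle partner in every pair of days 3 and 5, and the day 5 replicate 1 library with supernatant had the highest share of the 12. A share within coding reads is not affected by how many reads fell outside them.

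**Figure D1:**
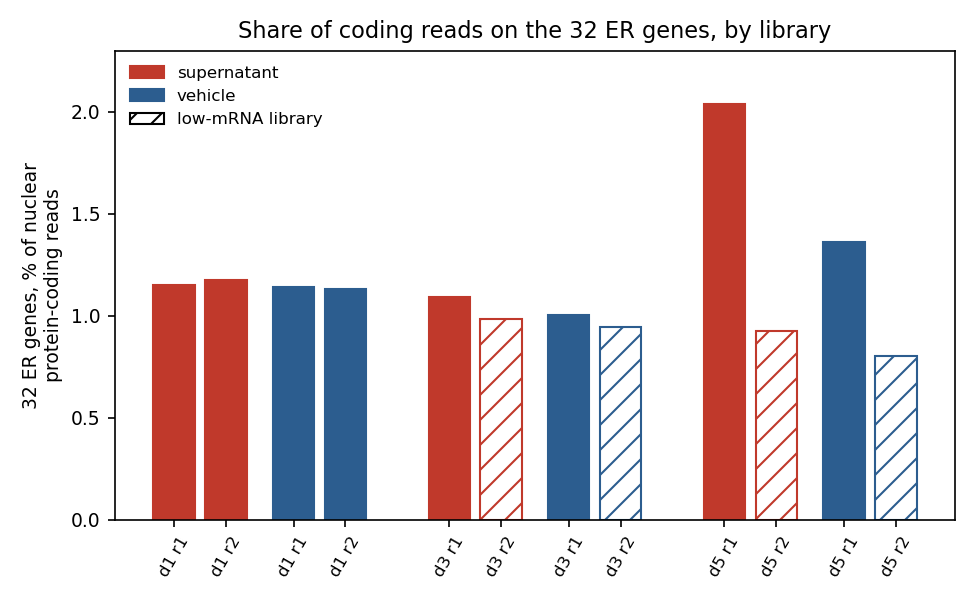
Percent of each library's nuclear protein-coding reads that fell on the 32 ER genes (vertical axis, from 0), by day (d) and replicate (r), with supernatant left of vehicle and low-mRNA libraries hatched. The supernatant library of day 5 replicate 1 stands highest at 2.04%, against 1.36% in its vehicle partner.

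At day 5 most of the 32 genes were higher in supernatant cultures than in vehicle cultures. The median difference was 0.80 in the replicate 1 pair and 0.72 in the low-mRNA pair for the 4 disulfide isomerases, 0.70 and 0.65 for the 6 genes of the HSP70 and HSP90 group, and 0.57 and 0.68 for the 3 J-domain co-chaperones; the groups were not tested against each other. Differences are log2 of the normalized count + 1, supernatant minus vehicle. They were tested with limma over all 12 libraries, with a term for the low-mRNA libraries at days 3 and 5, and p-values were adjusted by Benjamini-Hochberg over 14715 genes with a call under 0.05. In that fit Pdia4 rose and the other 31 genes did not pass; 0.279% of all genes tested were called higher and 0.129% lower. The call of Pdia4 was lost with a replicate block by day and with no term for the low-mRNA libraries. At an unadjusted p under 0.05 there were 18 of the 32, against 11% of all genes. Supernatant was above vehicle in both pairs of libraries for 28 of the 32 genes, against 26.8% of all genes, and below in both pairs for 0 of the 32, against 21.8%. When the values were scaled to coding reads instead, the first count was 22 of 32, against 20.4% of all genes. The second count was then 1 of 32, Mbtps1, against 35.6%. The median difference of the 32 genes was 0.38 in the replicate 1 pair and 0.49 in the low-mRNA pair, beside -0.09 and 0.23 over all genes. Scaling to coding reads moved the all-gene median of the low-mRNA pair to -0.01 and that of the 32 genes to 0.24. In the low-mRNA pair the supernatant library had 48.8% of reads on coding genes and the vehicle library 41.0%. Summed macrophage marker counts were 144529 with supernatant and 81757 with vehicle, of which Lyz2 made up 122798 and 65879. Of these markers only Spi1 was lower with supernatant, at 1957 against 2020. The part of coding share and of these markers in the differences was not tested.

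Without the 4 low-mRNA libraries, the fit of the other 8 called 14 of the 32 genes higher at day 5 and 0 lower, where 2.54% of all genes were called higher and 3.27% lower. At an unadjusted p under 0.05 there were 25 of the 32, against 25.9% of all genes. The 14 were Calr, Derl1, Dnajb11, Dnajc3, Hsp90b1, Hspa5, Hyou1, Manf, P4hb, Pdia3, Pdia4, Pdia6, Spcs2 and Ssr3. Each day 5 group has 1 library in that fit, which is assumed to vary like the day 1 pairs, and with any 1 day 1 library left out the fit called 0 of the 32 and 0% of all genes. In the fit of 12 libraries the call of Pdia4 was likewise lost without any 1 of the 8 libraries of days 1 and 5, while 11 or 12 of the 32 were called higher without 1 of the day 3 libraries, in fits that called 2.02% to 2.11% of all genes higher.

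All 4 disulfide isomerases were higher with supernatant in both pairs of day 5. Each pair of counts at days 3 and 5 gives replicate 1 and then the low-mRNA library. Pdia4 (ERp72) had 4115 and 386 normalized counts in supernatant libraries, against 1964 and 203.5 in vehicle libraries. The difference was 0.99 (SE 0.167, adjusted p = 0.0401), and both supernatant libraries were about 2-fold above their partners on the deposited scale. Scaled to coding reads, Pdia4 differed by 1.07 in the replicate 1 pair and 0.67 in the low-mRNA pair. The groups overlap, with both low-mRNA libraries below both others. Pdia6 (P5) had 5769.6 and 1033 normalized counts in supernatant libraries, against 3525 and 620.3 in vehicle libraries (difference 0.72, adjusted p = 0.1). Pdia3 (ERp57), which works on glycoproteins bound by the lectin chaperones, had 19666 and 3843 normalized counts in supernatant libraries, against 12001 and 2800.3 in vehicle libraries (difference 0.58, adjusted p = 0.16). P4hb had 14517 and 3278 normalized counts in supernatant libraries, against 7901 and 2003.5 in vehicle libraries. In replicate 1 the supernatant library of day 5 stood near the supernatant day 1 values of 15986 and 15571, and the vehicle library stood far below the vehicle day 1 values of 17951 and 16592.

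Among the HSP70 and HSP90 chaperones and their partners, all 6 genes were higher with supernatant in both pairs. Hspa5 had 47778.5 and 7791 normalized counts in supernatant libraries, against 28685 and 4203 in vehicle libraries (difference 0.81, SE 0.156, adjusted p = 0.061). Manf, a small secreted protein that binds BiP, had 2848 and 954 normalized counts in supernatant libraries, against 1771 and 499 in vehicle libraries (difference 0.81, adjusted p = 0.076). Hyou1, the nucleotide exchange factor GRP170, had 9704 and 764 normalized counts in supernatant libraries, against 5357 and 485 in vehicle libraries (difference 0.76, adjusted p = 0.108). In each of these genes the supernatant library was above its vehicle partner within both kinds of library, and the adjusted p missed 0.05. The differences of the other members of the group were 0.59 in Sdf2l1, 0.57 in Creld2 and 0.52 in Hsp90b1 (GRP94). The 3 J-domain co-chaperones, which hand clients to BiP, differed by 1.20 in Dnajb9, 0.54 in Dnajb11 and 0.50 in Dnajc3. The 2 pairs of Dnajb9 were unlike, with 0.57 in the replicate 1 pair and 1.83 in the low-mRNA pair, where its counts were 179 with supernatant and 49.5 with vehicle.

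**Figure D2:**
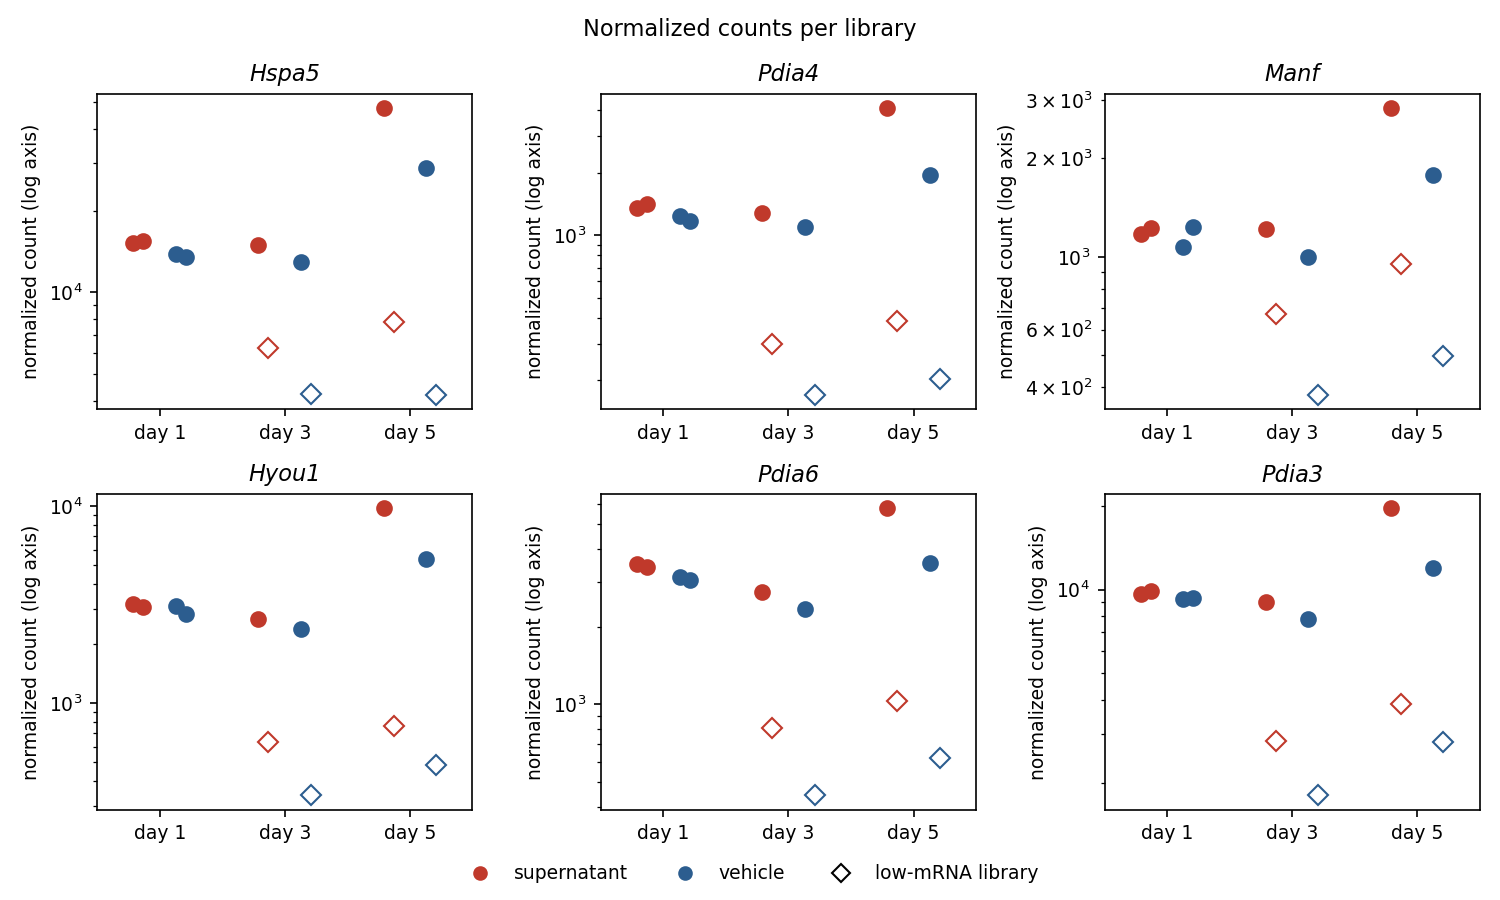
Normalized counts (log axis) of Hspa5, Pdia4, Manf, Hyou1, Pdia6 and Pdia3 in each of the 12 libraries by day, supernatant left and vehicle right, with low-mRNA libraries as open diamonds. At days 3 and 5 each supernatant library stands above the vehicle library of the same kind, and the low-mRNA libraries stand below the other libraries of their day.

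The lectin chaperones, the translocon and the degradation genes were mostly higher with supernatant at day 5, and 0 of them passed the test over 12 libraries. In the replicate 1 pair, Calr (calreticulin) differed by 0.71, Canx (calnexin) by 0.32 and Uggt1, the glucosyltransferase that tags unfolded glycoproteins, by 0.25. The low-mRNA pair gave 0.22, 0.20 and 0.10, at or below the all-gene median of 0.23 in that pair. The 5 translocon and signal peptidase genes had a median of 0.34 in the replicate 1 pair and 0.47 in the low-mRNA pair, from 0.03 in Sec61b to 0.48 in Ssr3 in the first. The other members lay between, Ssr1 at 0.27, Sec61a1 at 0.34 and Spcs2, a signal peptidase subunit, at 0.37. In the low-mRNA pair Ssr3 differed by 0.91, Spcs2 by 0.75, Sec61a1 by 0.47, Sec61b by 0.33 and Ssr1 by 0.09. The 6 degradation genes had a median of 0.05 in the replicate 1 pair and 0.44 in the low-mRNA pair, beside all-gene medians of -0.09 and 0.23. In the replicate 1 pair Derl1, a retrotranslocation protein, was highest at 0.42. Herpud1 went opposite ways in the pairs, -0.29 in replicate 1 and 1.03 in the low-mRNA libraries. The remaining replicate 1 differences were 0.17 in Edem1, 0.09 in Sel1l, 0.01 in Syvn1 (the ubiquitin ligase HRD1) and -0.03 in Derl2.

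The sensors and transducers did not pass the test at day 5. Xbp1 had 2195 and 807 normalized counts in supernatant libraries, against 1775 and 586 in vehicle libraries (difference 0.38, adjusted p = 0.444). Atf6 had 3931 and 742 normalized counts in supernatant libraries, against 3697 and 629 in vehicle libraries (difference 0.16). Both were higher with supernatant in each pair on the deposited scale. Ern1 had 939.6 and 126 normalized counts in supernatant libraries, against 808 and 74.9 in vehicle libraries (difference 0.48). Eif2ak3 had 432 and 93.6 normalized counts in supernatant libraries, against 479 and 73.5 in vehicle libraries (difference 0.10). Mbtps1, the protease that cuts ATF6, had 1129.5 and 275 normalized counts in supernatant libraries, against 1583 and 232 in vehicle libraries (difference -0.12). Eif2ak3 and Mbtps1 were lower with supernatant in the replicate 1 pair and higher in the low-mRNA pair, where the all-gene median was 0.23. Scaled to coding reads, Mbtps1 was lower in both pairs, by -0.49 and -0.0056. On that scale Atf6 differed by -0.01 in the low-mRNA pair, so these directions depend on the scaling.

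**Figure D3:**
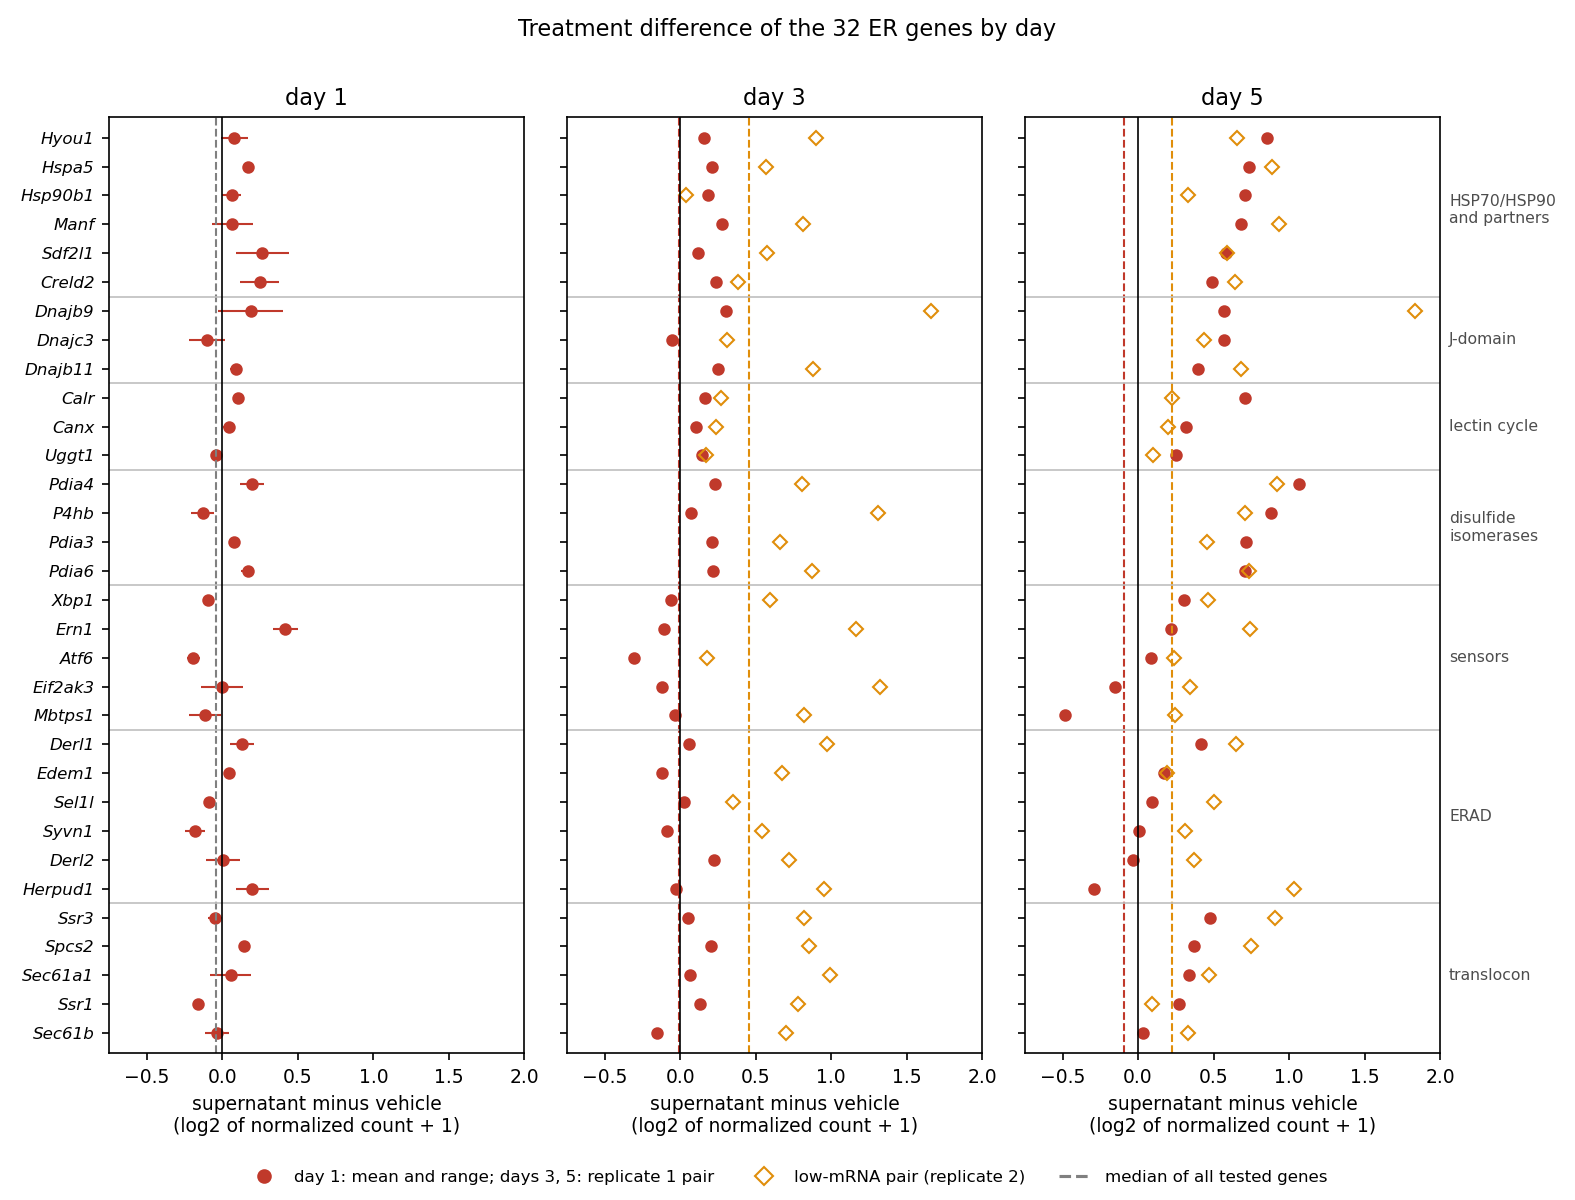
Supernatant minus vehicle (log2 of the normalized count + 1) for each of the 32 genes, grouped by role, at days 1, 3 and 5. Day 1 shows the difference of means with the range between libraries, days 3 and 5 show the replicate 1 pair (filled) and the low-mRNA pair (open), and dashed lines mark the all-gene median of each pair; at day 5 the filled points of all 4 disulfide isomerases lie at or above 0.71.

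At day 3 supernatant and vehicle cultures differed little in the replicate 1 pair and more in the low-mRNA pair. In the fit of 12 libraries 0 of the 32 genes were called, where 0.068% of all genes were called higher, and 15 of the 32 had an unadjusted p under 0.05, against 14.4% of all genes. In the fit of 8 libraries 0 of the 32 were called as well, with 7 at an unadjusted p under 0.05 (0.116% of all genes called higher, 12.3% at the unadjusted p). Supernatant was above vehicle in both pairs for 22 of the 32, against 37.5% of all genes, and for 18 when scaled to coding reads, against 31%. Their median was 0.11 in the replicate 1 pair and 0.75 in the low-mRNA pair, beside -0.01 and 0.46 over all genes. The low-mRNA libraries of day 3 had 47.0% of reads on coding genes with supernatant and 38.1% with vehicle, and on the coding scale the 2 medians of that pair were 0.45 and 0.16. Without either replicate 1 library of day 3, when the comparison rests on the low-mRNA pair, 22 of the 32 were called higher, in fits that called 29% of all genes higher. Summed osteoclast marker counts were 13752 and, in the low-mRNA library, 6511 with supernatant, against 17436 and 4052 with vehicle; their part was not tested.

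The 6 genes with the smallest p at day 3 were 2 disulfide isomerases, the BiP partners Dnajb11, Manf and Hyou1, and the signal peptidase subunit Spcs2. Pdia6 had 2735 and 812.5 normalized counts in supernatant libraries, against 2348 and 444 in vehicle libraries (difference 0.55, adjusted p = 0.287). Dnajb11 (ERdj3) had 1406 and 458 normalized counts in supernatant libraries, against 1182 and 248 in vehicle libraries (difference 0.57). Manf had 1215 and 668 normalized counts in supernatant libraries, against 1000.2 and 379 in vehicle libraries (difference 0.55). All 3 were higher with supernatant in both pairs, by less in the replicate 1 pair. Pdia4 had 1287 and 299 normalized counts in supernatant libraries, against 1096 and 170.5 in vehicle libraries, Spcs2 had 1816 and 493 normalized counts in supernatant libraries, against 1574 and 272 in vehicle libraries, and Hyou1 had 2658 and 635 normalized counts in supernatant libraries, against 2377 and 339.5 in vehicle libraries. The differences of those genes were 0.52, 0.53 and 0.53, with adjusted p from 0.304 to 0.319. Hspa5 had 14971 and 6264 normalized counts in supernatant libraries, against 12918 and 4227 in vehicle libraries (difference 0.39, adjusted p = 0.342). The 5 sensors and transducers were all lower with supernatant in the replicate 1 pair, from -0.30 in Atf6 to -0.03 in Mbtps1. All were higher in the low-mRNA pair, from 0.18 in Atf6 to 1.32 in Eif2ak3, where the all-gene median was 0.46. Some counts in the low-mRNA libraries were small: Ern1 had 44.1 with supernatant and 19.1 with vehicle. Eif2ak3 had 56.7 with supernatant and 22 with vehicle. Scaled to coding reads, Atf6 was lower with supernatant in both pairs, by -0.29 and -0.13. On that scale it was the only 1 of the 32 lower in both, against 19.6% of all genes.

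At day 1, where both replicates had like composition, the 32 genes differed little between arms. The fit of 12 libraries called 0 of the 32, with 0 at an unadjusted p under 0.05 (0.0408% of all genes were called higher and 4.68% had the unadjusted p). The fit of 8 libraries called 1, Ern1, where 3.12% of all genes were called higher and 2.62% lower, and 10 had an unadjusted p under 0.05, against 24.9%. Ern1 had 505 and 559 normalized counts in supernatant libraries, against 395 and 400.4 in vehicle libraries. Both supernatant libraries were above both vehicle libraries by a log2 difference of 0.42 (adjusted p = 0.0396 over 8 libraries and 1 over 12). The call was lost without any 1 of the day 1 libraries.

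Of the 32 genes, 14 had both supernatant libraries above both vehicle libraries at day 1, against 21.4% of all genes, and 9 had both below, against 33.4%. The 14 included Hspa5, with 15242 and 15505 normalized counts in supernatant libraries, against 13839 and 13549 in vehicle libraries, and Pdia4, with 1351 and 1422 normalized counts in supernatant libraries, against 1246 and 1174 in vehicle libraries. Sdf2l1, part of a BiP co-chaperone complex, had 901 and 799.9 normalized counts in supernatant libraries, against 753 and 663 in vehicle libraries (difference 0.26). Creld2, a calcium-binding ER protein, had 449 and 488 normalized counts in supernatant libraries, against 413 and 375 in vehicle libraries (difference 0.25). In these 4 genes the arms did not overlap, and none passed the test. The 9 included 3 of the transducers: Atf6 had 3241 and 3299.7 normalized counts in supernatant libraries, against 3663 and 3820.4 in vehicle libraries, Xbp1 had 1279 and 1295 normalized counts in supernatant libraries, against 1385 and 1361 in vehicle libraries, and Mbtps1 had 1377 and 1214 normalized counts in supernatant libraries, against 1382 and 1416 in vehicle libraries. Eif2ak3 overlapped between arms, with 377 and 369.6 normalized counts in supernatant libraries, against 408 and 343 in vehicle libraries.

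Whether the treatment difference at day 5 exceeded that at day 1 was tested directly. The fit of 12 libraries called 0 of the 32 genes and 0 genes overall (0%), with 9 of the 32 at an unadjusted p under 0.05, against 3.83% of all genes. The fit of 8 libraries called 2 of the 32, both larger at day 5, where 0.272% of all genes were called larger and 0.238% smaller. They were Pdia4, by 0.87 (adjusted p = 0.0472), and P4hb, by 1.01 (adjusted p = 0.047), and with any 1 day 1 library left out neither was called. At an unadjusted p under 0.05 there were 21 of the 32, against 17.3% of all genes. The median of the 32 genes for day 5 minus day 1 was 0.38 over 12 libraries, beside 0.11 over all genes. For day 3 minus day 1 and day 5 minus day 3, 0 of the 32 and 0% of all genes were called in either fit. At an unadjusted p under 0.05 the 12-library fit held 2 and 0 of the 32 for these contrasts, against 6.62% and 5.46% of all genes, and the 8-library fit held 3 and 17, against 12.9% and 15.1%.

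In both arms most of the 32 genes stood higher in replicate 1 of day 5 than at day 1. Replicate 1 of day 5 stood above the day 1 mean of its arm by a median of 0.75 with supernatant and 0.36 with vehicle, beside -0.05 and -0.00 over all genes; the supernatant arm was not tested over time. Hspa5 had 47778.5 in that supernatant library, against 15242 and 15505 at day 1. For 19 of the 32 genes, against 7.65% of all genes, supernatant was above vehicle in both pairs of day 5 and both replicate 1 libraries of day 5 were above every day 1 library. In vehicle cultures, replicate 1 of day 5 was above both day 1 libraries for 24 of the 32 (all genes, 42.2%) and below both for 5 (42.8%): P4hb, Sec61a1, Sec61b, Ssr1 and Ssr3. Replicate 1 of day 3 was above both for 9 (45.8%) and below both for 21 (37.3%).

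The test of vehicle day 5 against vehicle day 1 is at the level of the replicate 1 libraries. Hspa5, Dnajc3, Creld2, Sdf2l1 and Hyou1 rose, 5 of the 32 genes, and 0 fell; 1.62% of all genes were called higher and 1.31% lower. At an unadjusted p under 0.05 there were 14 of the 32, against 18.2% of all genes. Hspa5 had 28685 normalized counts in replicate 1 of day 5, against 13839 and 13549 at day 1 (log2 difference 1.03, SE 0.174, adjusted p = 0.0155). Dnajc3, the co-chaperone P58IPK, had 2465, against 1254 and 1317 (difference 0.97, adjusted p = 0.0163). Creld2, Sdf2l1 and Hyou1 differed by 0.93, 0.88 and 0.91, with adjusted p of 0.0246, 0.0366 and 0.0417. In the low-mRNA vehicle library of day 5 Hspa5 had 4203, below every day 1 library. These calls rest on the vehicle replicate 1 library of day 5, in which Acp5 was at 35.9. The part of its low summed osteoclast markers in the result was not tested. The calls were lost without that library, without either vehicle day 1 library, with a replicate block by day and with no term for the low-mRNA libraries. Hspa5 and Dnajc3 were called without either supernatant day 1 library, in fits that called 0.714% to 0.741% of all genes higher. Without 1 of the day 3 libraries 11 of the 32 were called higher and P4hb lower, where 4.54% to 4.6% of all genes were called higher and 5.67% to 5.71% lower.

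The fit of 8 libraries called 18 of the 32 genes higher and 1 lower at day 5 against day 1 in vehicle cultures, where 14.4% of all genes were called higher and 15% lower. At an unadjusted p under 0.05 there were 24 of the 32, against 42.2% of all genes. Without 1 vehicle day 1 library 6 or 8 were called higher and P4hb lower, where 2.82% or 3.61% of all genes were called higher and 2.04% or 2.37% lower. Herpud1, an ER membrane protein of the degradation complex, had the largest of the 18 differences at 1.56, with 1295 normalized counts against 451 and 425 at day 1. Ern1 differed by 1.02 and Xbp1 by 0.37. P4hb alone was called lower, by -1.13, with 7901 against 17951 and 16592; over 12 libraries its difference was -1.09 (adjusted p = 0.0579). The translocon genes had a median of -0.15 over this interval, against 0.87 for the HSP70 and HSP90 group.

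At day 3 against day 1 in vehicle cultures 0 of the 32 genes were called over 12 libraries, with 8 at an unadjusted p under 0.05, against 14.5% of all genes (0.87% were called higher and 2% lower). The 8-library fit called 9 lower and 0 higher (all genes, 10% lower and 9.69% higher), and 15 had an unadjusted p under 0.05, against 35.2%. The 9 were Derl2, Dnajb11, Hyou1, P4hb, Pdia3, Pdia6, Sel1l, Ssr1 and Uggt1. Uggt1 had the largest difference at -0.62, with 1528 normalized counts in replicate 1 of day 3 against 2313 and 2368. With 1 vehicle day 1 library left out the count was 0, and with 1 supernatant day 1 library left out it was 3, where at most 0.319% and 5.09% of all genes were called lower. Over 12 libraries without the vehicle replicate 1 library of day 3 it was 13, where 13.1% of all genes were called lower. The 5 sensors and transducers were not lower in the replicate 1 library of day 3, with differences of 0.01 to 0.14.

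**Figure D4:**
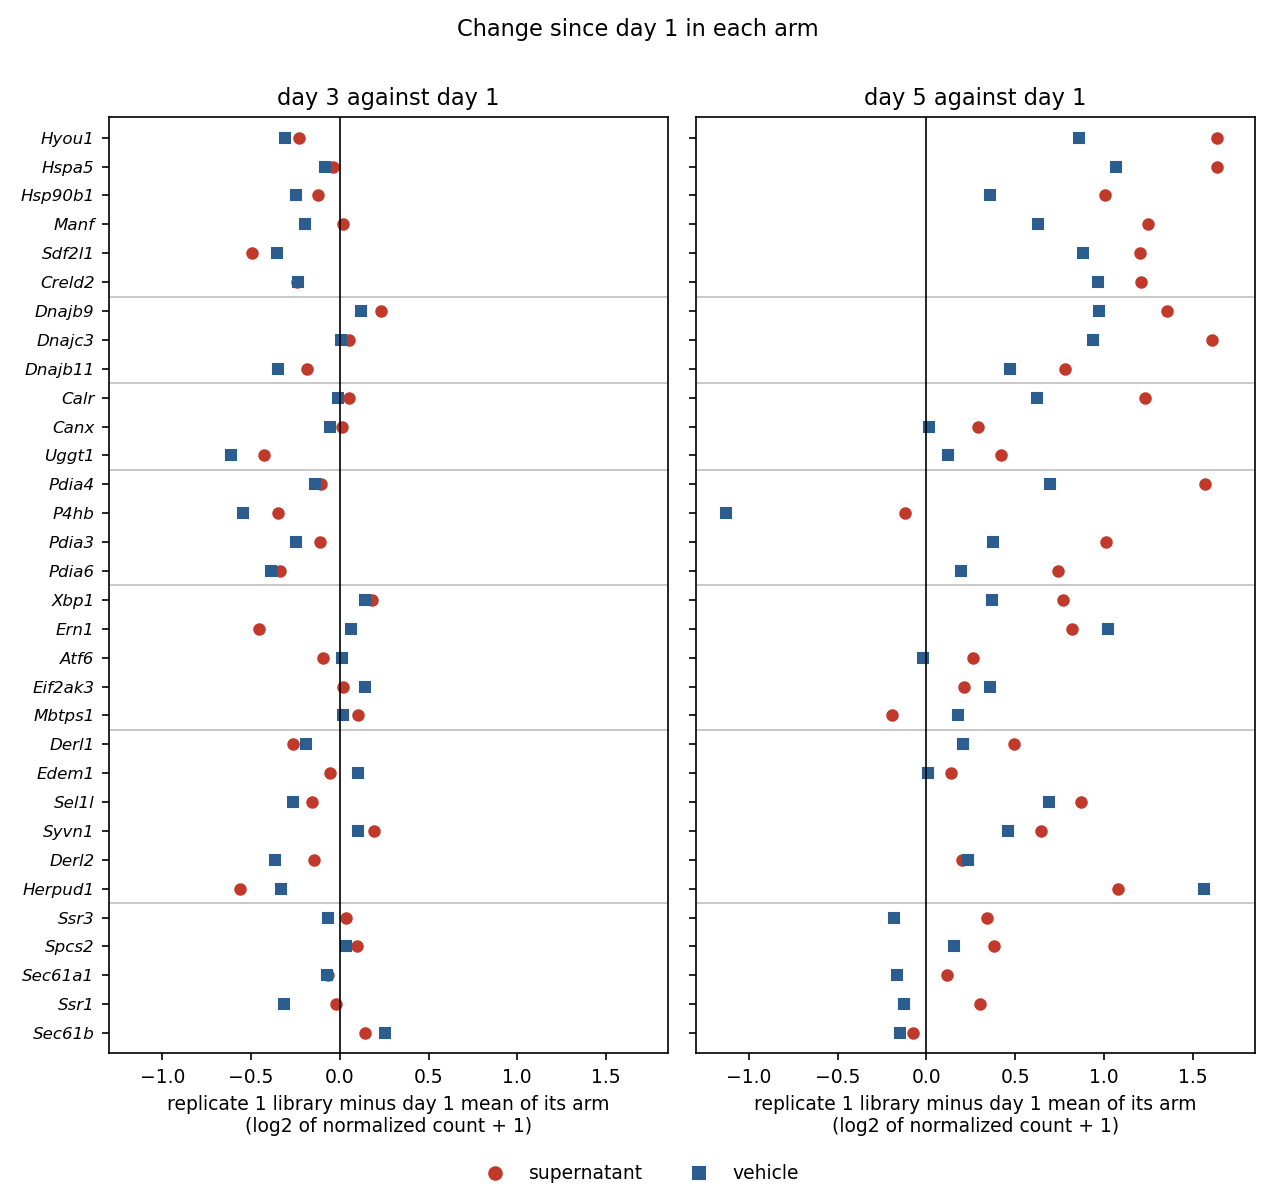
Change of each gene since day 1 (replicate 1 library of day 3 or 5 minus the day 1 mean of its own arm, log2 of the normalized count + 1), supernatant as circles and vehicle as squares, ordered by role. At day 5 the 6 genes of the HSP70 and HSP90 group lie at 1.00 or more with supernatant and at 0.36 to 1.07 with vehicle, while P4hb lies at -0.12 with supernatant and -1.13 with vehicle.

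On the deposited scale nearly all the 32 genes were lower in low-mRNA libraries than in the replicate 1 libraries of the same day. At day 3, 29 of the 32 fell and 0 rose, where 70.6% of all genes were called lower and 11.8% higher, and the median of the 32 was -1.86, beside -1.45 over all genes. At day 5, 31 fell and 0 rose (64% of all genes lower and 12.7% higher), and the median was -2.07, beside -1.11 over all genes. Most of the 32 fell on other scalings as well, but a few genes were called higher there, so single directions depend on the scaling. Scaled to coding reads, 24 fell at day 3 and Calr, Creld2, Dnajc3 and Hsp90b1 rose (48.6% of all genes lower and 25.5% higher), and 27 fell at day 5 and Sec61b rose (39.3% lower and 31.1% higher). With quantile normalization 22 fell at day 3 and Calr, Creld2, Derl2 and Dnajc3 rose (40.5% lower and 31.8% higher), and 29 fell at day 5 and Derl2 and Sec61b rose (37.6% lower and 33.6% higher). Of the 32, 21 lay below the all-gene median at day 3 and 28 at day 5. The members differed widely among themselves. Ern1 had the largest difference at day 3, -3.74 (SE 0.271), and Hyou1 at day 5, -3.56 (SE 0.18). On the deposited scale Hsp90b1 had 14008 normalized counts in the low-mRNA supernatant library of day 3 and 14190.4 in its replicate 1 partner, with 13643 and 12486 in vehicle libraries. Calr and Dnajc3 also did not pass at day 3, with 0.29 and -0.10, and Sec61b did not at day 5, with -0.47 (adjusted p = 0.0551). Hspa5 and Hsp90b1 thus differed by -1.43 and 0.05 at day 3 in the same libraries. The part of RNA quality, of cell state and of library preparation in these differences cannot be told apart, since each kind has 1 library per arm and day.

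**Figure D5:**
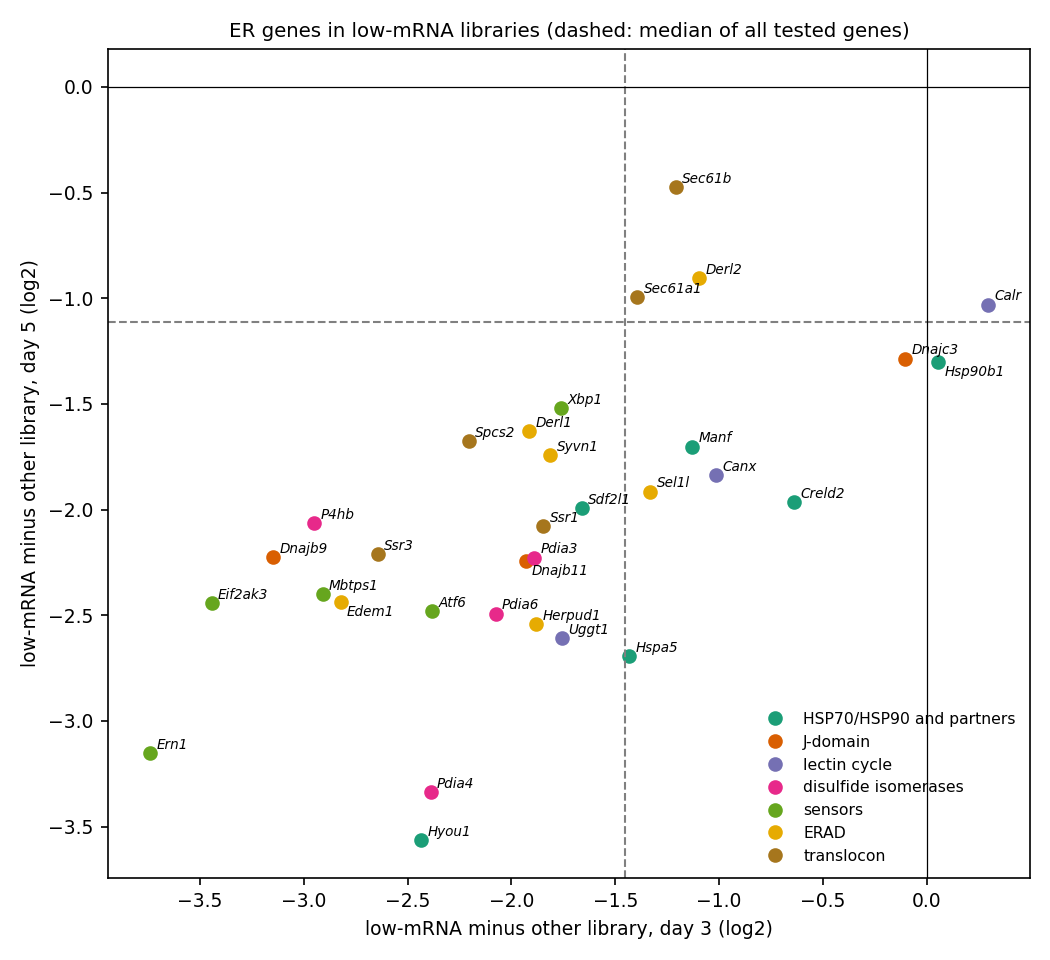
Low-mRNA minus replicate 1 libraries on the deposited scale (log2 of the normalized count + 1, both arms) for the 32 genes, day 3 on the horizontal and day 5 on the vertical axis, coloured by role, with dashed lines at the all-gene medians of -1.45 and -1.11. Calr, Hsp90b1 and Dnajc3 lie at 0.29, 0.05 and -0.10 at day 3, and Ern1, Hyou1 and Pdia4 lie at the far end on day 5.

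The 10 genes with an ERSE or ERSE-II and the 17 with a window and neither motif were set side by side. At day 5 their median treatment difference was 0.53 and 0.27 in the replicate 1 pair, and 0.54 and 0.46 in the low-mRNA pair. In vehicle cultures the medians for day 5 against day 1 were 0.55 and 0.24. The day 5 minus day 1 change with supernatant had medians of 1.04 and 0.38. At day 3 the order was not the same throughout. The median treatment difference was 0.17 and 0.07 in the replicate 1 pair, but 0.46 and 0.78 in the low-mRNA pair. Vehicle day 3 against day 1 gave -0.16 and -0.07. Manf, Hyou1, Atf6, Derl1 and Sec61a1, without a window, are in neither set. The 17 include genes with large differences, such as Pdia4, and the 10 include Herpud1, so the 2 sets overlap.

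Other genes of the same pathways were taken from further lists, and over 12 libraries 0 of them were called between supernatant and vehicle at any day. Of 16 tested genes of the PERK arm and integrated stress response, 7 were called higher at day 1 in the fit of 8 libraries, against 3.12% of all genes, and 3 at day 5, against 2.54%. Atf3, a stress-induced transcription factor, had 1992 and 2053 in supernatant libraries of day 1, against 1001 and 849 in vehicle libraries (difference 1.13, adjusted p = 0.0663 over 12 libraries and 0.00946 over 8). Ddit3 (CHOP) had 362 and 361, against 154 and 132 (difference 1.34, adjusted p = 0.225 and 0.00946). The groups of both genes did not overlap at day 1, unlike those of the PERK gene Eif2ak3. Calls of the 8-library fit between supernatant and vehicle, here and in the lists below, were lost without either supernatant day 1 library. Atf4 differed by 0.45 at day 1 and 0.63 at day 5, and Asns, asparagine synthetase, by 1.00 at day 5 (adjusted p = 0.0894 over 12 libraries). Over 8 libraries the day 5 difference of Asns was 0.67. In vehicle cultures 4 of the 16 fell by day 3 over 12 libraries, where 2% of all genes were called lower and 0.87% higher. The log2 differences were -3.38 in Trib3, -3.80 in Chac1, -1.65 in Asns and -0.87 in Atf4. Trib3 had 17.2 and 8.8 normalized counts in vehicle libraries of day 3, against 176 and 160 at day 1. Chac1 had 8.6 and 4.4, against 124 and 81.7. The sizes of these 2 differences thus rest on few reads. Ddit3 rose by day 5, by 1.93 (adjusted p = 0.0145), where 1.62% of all genes were called higher. That difference is at the level of the vehicle replicate 1 library of day 5. Ddit3 had 697 there and 277 in the low-mRNA vehicle library, against 154 and 132 at day 1.

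At day 5 in the fit of 8 libraries, which called 2.54% of all genes higher, 5 of 28 further translocon and oligosaccharyl transferase genes were called higher, 2 of 20 folding genes, 1 of 19 degradation genes, 1 of 20 cargo exit genes and 0 of 14 membrane-bound factors and their processing enzymes, with 0 lower. In the translocon list Stt3b, an oligosaccharyl transferase subunit, differed by 0.49 and Serp1, which stabilizes the translocon, by 0.64. Among folding genes the disulfide isomerase Pdia5 differed by 1.08, with 149 and 41.5 normalized counts in supernatant libraries, against 69.9 and 21.2 in vehicle libraries. Selenos of the degradation list differed by 0.58 and Tmed2 of the cargo list by 0.43. At day 3 the same fit called 0 genes of any list, and at day 1 it called Erp29 and Nfya lower, by -0.23 and -0.29. Of all genes, that fit called 2.62% lower at day 1. In vehicle cultures over 12 libraries, Crebrf rose by day 3, by 0.91, where 0.87% of all genes were called higher. Qsox1, a thiol oxidase, Crebrf and Creb3l2 rose by day 5, by 1.06, 0.77 and 0.91, where 1.62% of all genes were called higher. These differences are at the level of the vehicle replicate 1 library of day 5. Qsox1 had 1089 there and 223 in the low-mRNA vehicle library, against 524 and 456 at day 1. Crebrf, with 928 and 852, and Creb3l2, with 388 and 233, were above both vehicle day 1 libraries in each.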

How the data were processed

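Total RNA of RAW264.7 cells was made into TruSeq libraries, per the labels' protocols. TopHat2, SAMtools and DESeq2 are the tools, and mm9 the build, that the submitters' processing notes name for the authors' work; how reads were counted, and over which annotation, is not given. The deposited log2 values were found to be log2(normalized count + 8), where the normalized count is a library's reads scaled to 1.27095e+07 in every library. Dividing by the value of 1 read gave whole reads for 100% of values within 0.02 reads. Such scaling lowers nuclear genes where mitochondrial and Malat1 reads are many. Of 24757 rows, 993 repeated a gene with equal values and were dropped, and the 32 symbols were the names of their Ensembl IDs in GENCODE M21. Groups and replicate numbers came from the titles.

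Genes with a mean of 10 normalized counts in at least 1 group were tested (14715, all 32 members among them) on log2(normalized count + 1) with limma 3.58.1 (trended, R 4.3.3), with a mean per group and a term at each of days 3 and 5 for libraries under 60% coding reads; Benjamini-Hochberg adjustment ran over all tested genes. A treatment difference is then the mean over both pairs, and time differences are at the level of the other libraries. At 3 and 5 days the term equals the replicate number. It takes up the shared difference between the 2 libraries of a group at those days. The error then rests on the day 1 libraries and on how far the treatment differences of the 2 pairs of a day disagree. Normalized counts are given per library. Fold changes on this scale understate low genes. The fit was also run on counts simulated from its own model with known changes. Such counts follow the assumptions of the fit, so that run is no check of those assumptions in these data. Alternatives were no such term, a replicate block, 8 libraries, only the days compared, no filter, each library left out in turn, quantile normalization, other pseudocounts (0.5 and 5), the deposited log2 values, limma-voom on the recovered reads, array weights and, chosen after seeing the data, scaling to coding reads and each library left out of the 8. The members and lists were chosen with earlier results of these data known. For values per library, the sensors, Hspa5 and up to 6 genes of smallest p per day were named; of further lists at most 4 per comparison. Coordinates are those of RefSeq GRCm38.p6, not of the authors' build. Python 3.11.15 with pandas 2.3.3 was used for the rest. The replicate numbers of day 1 are not stated to pair samples. Counts per library of 8071160 to 16781080 reads limit precision for genes with few reads.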

Additional observations from a re-analysis of the deposited data

How the results depend on the processing

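The number of all genes called changed with the setting too. For supernatant against vehicle at day 5 the all-gene number moved in 29 alternatives and stayed similar in 2. A changed count is thus not by itself particular to the 32 genes. Shares of all genes are not given beside the counts below. Those counts show how the number moved with the setting, and not whether it exceeded the share of all genes. The number of the 32 genes called depends on how the low-mRNA libraries are handled, and the cause was not tested. For supernatant against vehicle at day 5 it was 1, and 0 with no term for library kind, 0 with no filter on low values, 2 with a pseudocount of 5, 2 with the deposited log2 values, 4 with only the days compared, 4 when scaled to coding reads, 5 with limma-voom, 8 with quantile normalization and 14 with 8 libraries on either scaling. At day 1 it was 0, and 1 with 8 libraries on either scaling, with only the day compared and with array weights. For day 5 minus day 1 it was 0, and 2 with 8 libraries on either scaling. For vehicle day 3 against day 1 it was 0, and 1 with only the days compared, with limma-voom and when scaled to coding reads, 4 with quantile normalization and 9 with 8 libraries on either scaling. For vehicle day 5 against day 1 it was 5, and 0 with no term and with no filter, 8 with a pseudocount of 5, 9 with the deposited log2 values, 10 with limma-voom, 11 with array weights, 12 with only the days compared and when scaled to coding reads, 15 with quantile normalization and 19 with 8 libraries on either scaling. Of its genes 4 turned negative with no term: Hspa5 to -0.32, Hyou1 to -0.87, Sdf2l1 to -0.11 and Creld2 to -0.054. With a replicate block by day, which pairs the libraries by number, 0 of the 32 were called at day 5 and 0 for vehicle day 5 against day 1; replicate 2 of days 3 and 5 is the low-mRNA library in both arms, and the numbers share nothing else in the labels.

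With 1 library left out, the count ranged from 0 to 0 for treatment at day 1, 0 to 22 at day 3, 0 to 12 at day 5, 0 to 0 for day 5 minus day 1, 0 to 13 for vehicle day 3, 0 to 12 for vehicle day 5, and 29 to 29 and 31 to 32 for low-mRNA libraries at days 3 and 5. With 1 of the 8 libraries left out it ranged from 0 to 1, 0 to 0, 0 to 14, 0 to 2, 0 to 9 and 7 to 19 for the first 6, and vehicle day 5 had 16 without either supernatant day 1 library. A pair of libraries per group, 1 of each kind at days 3 and 5, limits every comparison, and a difference that missed the threshold is not shown to be absent.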
